A study of Mus musculus with 24 samples.

Results

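The genes described here are 50 genes of the G2 phase and of mitosis, found by their Ensembl identifiers in a count table of 54446 identifiers. They were chosen by name from knowledge of cell division, with earlier results of these data known. They were followed in CD4+ T cells from mouse spleen, in wild type C57BL6 mice (WT) and in mice deficient for AIM2 (Aim2-/-), a sensor of cytosolic DNA. Cells were left unstimulated (0 h) or stimulated with antibodies to CD3 and CD28, which stand in for antigen and costimulation, for 3 h, 6 h or 24 h. There were 24 libraries from 6 mice, 3 of each genotype (labelled WT 1, 3 and 4 and Aim2-/- 1, 2 and 4), and each mouse was sampled at all 4 times. Apart from the deficiency, which in these mice is not limited to T cells, the labels give both genotypes the same cells and the same treatment. Ages of the mice are not given in the sources used here. All 50 genes passed the filter on low counts that left 15325 genes for testing.

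Cell division in T cells follows activation by many hours, since a resting T cell must first leave G0, grow and copy its DNA. Entry into mitosis is driven by CDK1 bound to cyclin A or cyclin B. The checkpoint at the kinetochores holds the anaphase-promoting complex (APC/C) in check until all chromosomes are attached, and CDC20 then activates that complex so that securin and cyclin B are destroyed. Many genes of this programme are repressed in resting cells by the DREAM complex and are later activated by B-MYB and FOXM1 through a short promoter element, the cell cycle genes homology region, often with CCAAT boxes bound by NF-Y beside it.

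Promoter stretches of 6 of the genes are shown because the genes of this group share such letters, and because the group also holds genes without them. Each runs from 120 bases before to 20 bases after the transcription start that RefSeq lists on GRCm38.p6, 5′ to 3′ on the strand of the gene. Capitals mark CCAAT, and TTTGAA or TTTAAA (the letters of the homology region), each on either strand, so that TTCAAA is TTTGAA read on the other strand. The first 4 are from cyclin B1 (chr13:100786467-100786606, minus strand), cyclin B2 (chr9:70421535-70421674, minus), the APC/C activator Cdc20 (chr4:118437324-118437463, minus) and the mitotic kinase Plk1 (chr7:122159315-122159454, plus). The checkpoint gene Bub3 (chr7:131560250-131560389, plus, the first of its listed starts) and the securin gene Pttg1 (chr11:43425962-43426101, minus) follow, and Pttg1 was chosen after its values were seen. The gene annotation used here places Bub3 at chr7:131560222-131571895 and Pttg1 at chr11:43420250-43426251. Both printed stretches thus lie inside the annotated gene, downstream of its 5′ end, and the Pttg1 stretch does not show the bases before that end.
Ccnb1: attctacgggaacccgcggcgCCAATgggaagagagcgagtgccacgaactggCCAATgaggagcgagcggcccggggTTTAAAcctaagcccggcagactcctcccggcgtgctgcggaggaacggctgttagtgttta
Ccnb2: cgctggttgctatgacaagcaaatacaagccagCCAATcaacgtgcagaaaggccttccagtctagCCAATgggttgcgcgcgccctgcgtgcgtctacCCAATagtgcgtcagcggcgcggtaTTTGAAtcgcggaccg
Cdc20: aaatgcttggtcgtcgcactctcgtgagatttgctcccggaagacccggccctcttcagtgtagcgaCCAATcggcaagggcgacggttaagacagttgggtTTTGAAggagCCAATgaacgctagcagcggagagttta
Plk1: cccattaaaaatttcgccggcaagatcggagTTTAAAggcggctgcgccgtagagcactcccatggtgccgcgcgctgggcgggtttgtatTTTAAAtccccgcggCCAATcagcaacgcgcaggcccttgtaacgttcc
Bub3: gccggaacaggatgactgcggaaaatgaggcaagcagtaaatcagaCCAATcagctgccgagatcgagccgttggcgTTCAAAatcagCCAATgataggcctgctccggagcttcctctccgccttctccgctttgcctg
Pttg1: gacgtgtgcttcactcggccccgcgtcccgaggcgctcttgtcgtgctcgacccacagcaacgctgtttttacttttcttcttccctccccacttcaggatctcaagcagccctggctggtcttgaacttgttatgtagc

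RefSeq windows reaching from 250 bases before to 50 bases after a start were at hand for 41 of the 50 genes, which together have 44 listed promoters. TTTGAA was present in 72.7% of these 44 promoters, against 12.4% of the 13486 promoters of tested genes and 17.9% of all 32851 promoters in the table. CCAAT was present in 72.7% of the members' promoters, against 37.5% of those of tested genes. The homology region letters (TTTGAA or TTTAAA) stood together with CCAAT in 68.2% of members' promoters, against 7.58% of those of tested genes. For comparison, letters of E2F sites were searched on either strand in 4 spellings. Any of TTCCCGC and TTCGCGC on the one hand or TTGCCGC and TTGGCGC on the other was in 20.5% of members' promoters and 16.0% of those of tested genes. Neither TTTGAA nor TTTAAA was found in the windows of Cdc25b, Bub1, Mad2l1, Pttg1, Nuf2, Nusap1, Ncaph and Mybl2. The Pttg1 window lies inside the annotated gene, so bases before the annotated 5′ end of Pttg1 were not searched. A match describes letters in a window and does not show a site in use. Ccna2, Cdc25c, Aurkb, Incenp, Spc24, Kif20a, Tpx2, Smc4 and Foxm1 had no entry.

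Some libraries stood apart before any gene of the group was considered. Aim2 itself was at 75.0 and 67.5 CPM (counts relative to the TMM-scaled library total) at 0 h in WT 3 and WT 4, but at 21.5 CPM in the mouse labelled WT 1, close to the 15.7 to 20.1 CPM of the Aim2-/- mice, and this held at every time. The label of that mouse is therefore in doubt, and counts are given with and without it. Library totals lay between 19715161 and 21627018 counts. The 6 CD4+ T cell markers (Cd3d, Cd3e, Cd3g, Cd4, Trac and Cd28) were abundant in all libraries, with summed levels from 2343 to 3901 CPM. Markers of other spleen cells were unequal between the genotypes. The sum of 5 granulocyte progenitor markers at 0 h was 27.1 to 33.2 CPM in WT and 127 to 288 CPM in Aim2-/- mice, and that of 6 erythroid markers was 25.2 to 69.3 CPM in WT and 34.6 to 331 CPM in Aim2-/- mice. Plasma cell, myeloid and B cell markers were also higher in the Aim2-/- mice at 0 h, and the B cell sum stayed at or under 38.6 CPM in every library. These cell types can include dividing cells.

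In resting cells most of the group was low, and a few genes were not. At 0 h the mean level of 14 of the 50 genes in WT cells was under 5 CPM, and that of 4 genes was over 100 CPM. Per kilobase of exon sequence, the highest in resting WT cells was the condensin ATPase Smc4 at 144 CPM per kb. It was followed by the securin gene Pttg1 at 30.3, the centromeric histone gene Cenpa at 28.2, the CDK1-activating phosphatase Cdc25b at 27.2 and Bub3 at 16.3 CPM per kb. The 3 lowest in WT cells were Ccnb1 at 0.292, the contractile ring gene Anln at 0.274 and the phosphatase Cdc25c at 0.123 CPM per kb. Resting Aim2-/- cells had the same 5 genes at the top, with Cdc25b and Cenpa in the other order at 27.5 and 26.9 CPM per kb, a difference smaller than the spread between mice. By 24 h the order had turned over, and Top2a was highest in WT and in Aim2-/- cells at 117 and 94.3 CPM per kb. These lengths merge all annotated exons, so they understate genes with rare long transcripts.

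**Figure D1:**
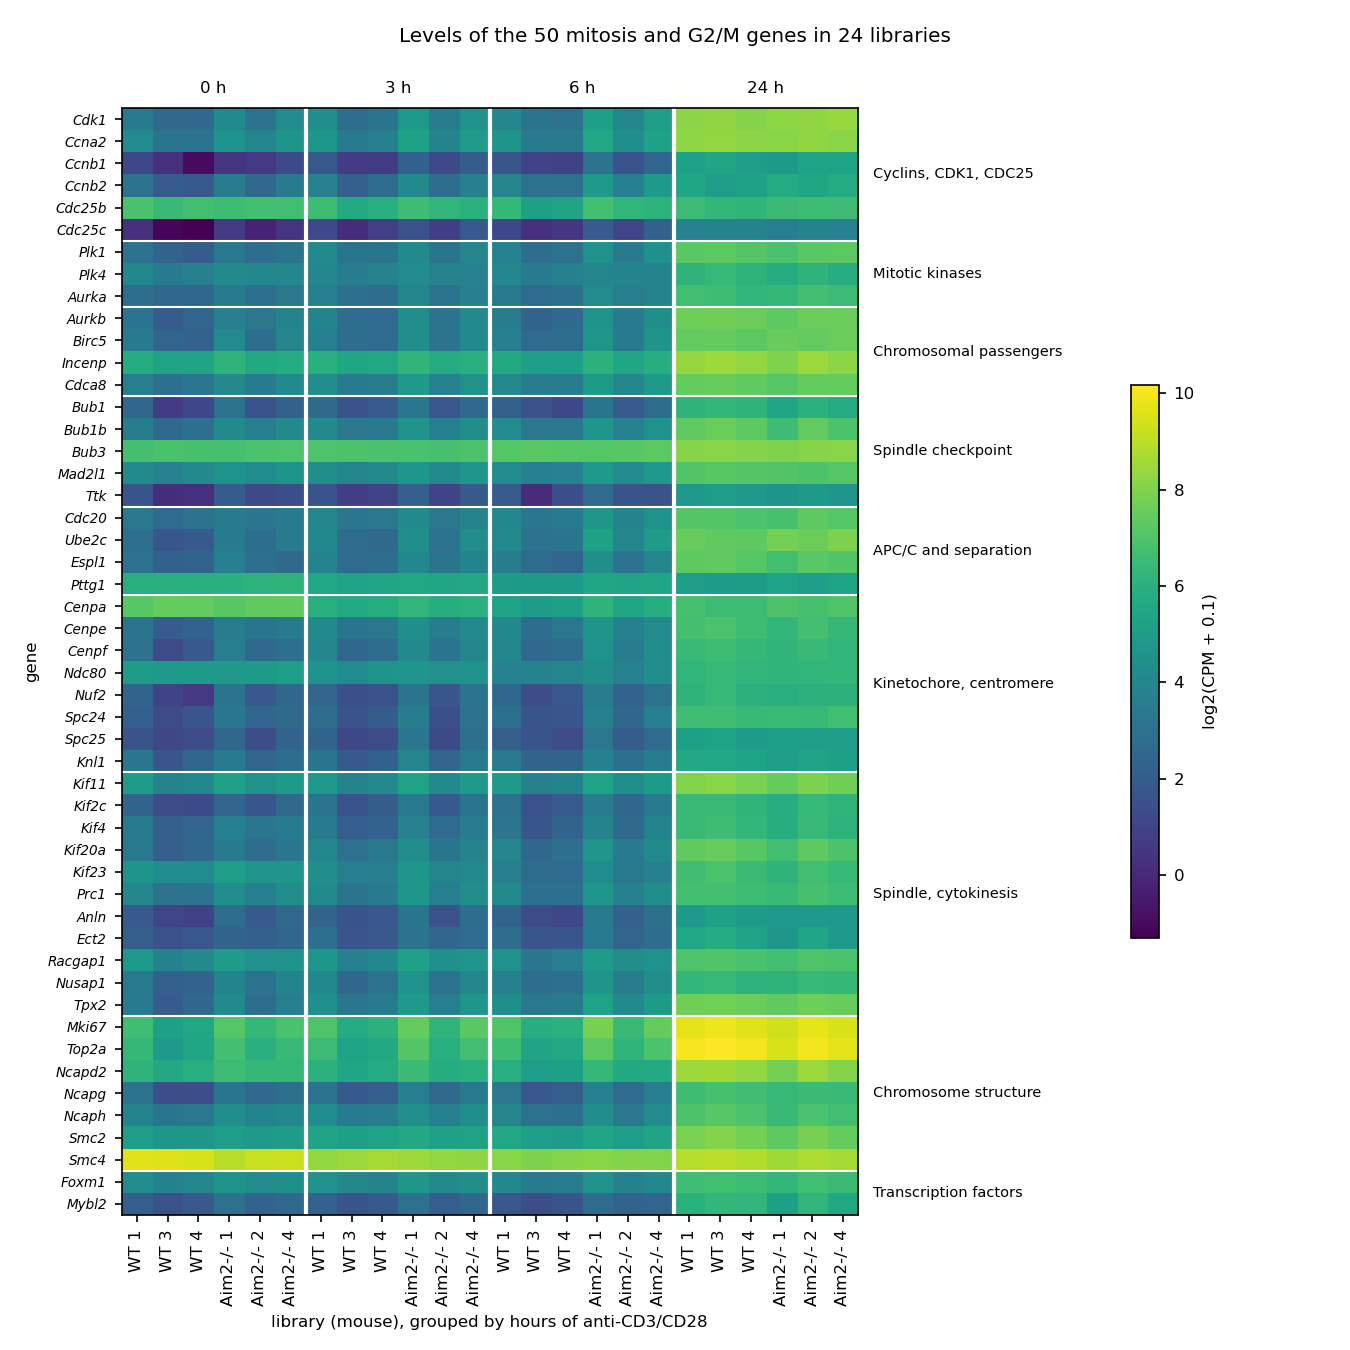
Levels of the 50 genes (rows, by role) in the 24 libraries (columns, by time and mouse), as log2(CPM + 0.1) on a colour scale. Most rows are dark until 6 h and bright at 24 h, while Smc4, Cenpa, Pttg1, Cdc25b and Bub3 are bright at 0 h, and within each early time the columns of WT 3 and WT 4 are the darkest for most rows.

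After 24 h of stimulation nearly the whole group was higher. In WT cells 46 of the 50 genes rose and 3 fell against 0 h at an adjusted p under 0.05 (edgeR quasi-likelihood test, Benjamini-Hochberg adjustment over all tested genes), where 71.4% of all tested genes were called, 36.6% as higher and 34.8% as lower. In Aim2-/- cells the same counts, 46 risen and 3 fallen, were found against a background of 70.3%, of which 36.8% were higher and 33.5% lower. The median log2 change of the 50 genes was 3.88 in WT and 3.02 in Aim2-/- cells, against -0.01 and 0.03 over all tested genes. The levels at 24 h overlapped with those at 0 h in no mouse for the 46 genes that rose, in either genotype, and 39.3% and 37.3% of all tested genes in WT and Aim2-/- cells were likewise higher in every 24 h library. The WT counts were again 46 and 3 without the mouse labelled WT 1. In bulk RNA, more cells in G2 and mitosis cannot be told apart from more RNA of these genes per cell.

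Cdk1 and the 3 cyclin genes all rose, by unequal amounts. Cdk1, the kinase that starts mitosis, was at 10.5, 6.31 and 6.03 CPM at 0 h in WT 1, 3 and 4 and at 290.2, 305 and 265 CPM at 24 h. In Aim2-/- 1, 2 and 4 it went from 18.3, 8.37 and 19.0 CPM to 303, 304 and 336 CPM. The resting levels of the 6 mice were spread over a wide range, and the levels at 24 h lay close together. The log2 change of Cdk1 was 5.23 ± 0.45 (SE, 37.6-fold) in WT and 4.37 ± 0.43 (20.7-fold) in Aim2-/- cells, the largest change of the group in WT cells. Ccnb1, cyclin B1, was among the lowest genes at rest, at 0.41 to 2.20 CPM in WT and 1.26 to 2.22 CPM in Aim2-/- mice, and reached 34.1 to 42.8 CPM and 30.4 to 40.6 CPM. Its log2 change was 4.95 ± 0.48 in WT and 4.50 ± 0.46 in Aim2-/- cells. Other annotated genes, among them the pseudogene Ccnb1-ps, together share 23.2% of the 51-base windows of Ccnb1, so the level of Ccnb1 is uncertain. Ccna2, cyclin A2, rose from 8.16 to 18.8 CPM in WT mice to 285 to 322 CPM, a log2 change of 4.66 ± 0.46. Ccnb2, cyclin B2, rose less, by 2.89 ± 0.44 on the log2 scale in WT and by 2.42 ± 0.42 in Aim2-/- cells. The phosphatases CDC25B and CDC25C both remove inhibitory phosphates from cyclin-bound CDKs, yet their RNAs differed. Cdc25c rose by 4.52 ± 0.46 in WT, to only 13.9 to 14.3 CPM, and Cdc25b was at 85.1 to 117 CPM at 0 h and 74.7 to 94.6 CPM at 24 h, with a log2 change of -0.30 ± 0.25 and an adjusted p of 0.29 in the edgeR fit. It was lower at 24 h than at 0 h in all 6 mice, and in the Aim2-/- mice its 93.0 to 97.6 CPM at 24 h did not overlap with 98.1 to 105 CPM at 0 h. In Aim2-/- cells 33.6% of all tested genes were likewise lower in every 24 h library. The log2 change of Cdc25b there was -0.10 (adjusted p 0.72, edgeR). A fit of the WT libraries of these times alone called it lower, with a log2 change of -0.33 (adjusted p 0.039, edgeR). No other setting run called Cdc25b at 24 h against 0 h in either genotype.

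The mitotic kinases and the chromosomal passenger complex, which corrects faulty attachments, rose together in count: all 3 kinases and all 4 passenger genes passed the test in both genotypes. Aurkb, the kinase of the passenger complex, was at 8.30, 3.98 and 5.32 CPM at 0 h in WT 1, 3 and 4 and at 198, 208 and 185 CPM at 24 h. In Aim2-/- 1, 2 and 4 it went from 12.9, 9.50 and 14.4 CPM to 154, 194 and 190.4 CPM. No 24 h library came near a resting one, and the log2 change was 5.07 ± 0.40 in WT and 3.87 ± 0.38 in Aim2-/- cells. Birc5, survivin, which anchors the complex at centromeres, rose by 4.60 ± 0.43 and 3.75 ± 0.41 in WT and Aim2-/- cells. Plk1, which acts from centrosome maturation to cytokinesis, rose by 4.69 ± 0.36 and 4.03 ± 0.35, and Aurka, the kinase of the spindle poles, by 3.91 ± 0.26 and 3.37 ± 0.25. Plk4, the kinase of centriole duplication, rose least of the kinases, by 2.48 ± 0.18 in WT cells.

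Of the spindle checkpoint, all 5 genes rose in both genotypes, by unequal amounts. Bub1, Bub1b, Ttk and Mad2l1 had log2 changes of 3.12 to 4.59 in WT cells, and Mad2l1, whose product binds CDC20 when attachments are missing, was at 13.5 to 18 CPM at 0 h and 133 to 147 CPM at 24 h. Bub3, which also has tasks outside mitosis, was already at 110, 119 and 114 CPM at 0 h in WT 1, 3 and 4. It was at 269, 281 and 264 CPM at 24 h in the same mice, and at 114 to 128 CPM and 246 to 279 CPM at the same times in the Aim2-/- mice. The levels differed little between mice at either time, and the log2 change of 1.25 ± 0.07 in WT (2.37-fold) and 1.14 ± 0.07 in Aim2-/- cells was the smallest rise among the genes called higher. Its promoter holds both kinds of letters shown above.

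Of the 4 genes of the APC/C and of sister separation, 3 rose and 1 fell. Ube2c, the ubiquitin-conjugating enzyme of the APC/C, was at 7.25, 3.31 and 3.75 CPM at 0 h in WT 1, 3 and 4 and at 182, 167 and 159 CPM at 24 h. In the Aim2-/- mice it went from 7.14 to 11.0 CPM to 191 to 241 CPM, with log2 changes of 5.14 ± 0.46 in WT and 4.50 ± 0.44 in Aim2-/- cells. Cdc20, the activator, rose by 4.04 ± 0.29 in WT and 3.81 ± 0.28 in Aim2-/- cells. Espl1, separase, which cuts cohesin, rose by 4.71 ± 0.40 in WT, whereas its inhibitor securin, Pttg1, fell.

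Kinetochore and spindle genes made up the largest share of the group. Among 8 kinetochore and centromere genes 7 rose in each genotype, with a median log2 change of 4.04 in WT and 3.04 in Aim2-/- cells. The 4 subunits of the NDC80 complex, which holds microtubules, were Ndc80, Nuf2, Spc24 and Spc25. Nuf2, Spc24 and Spc25 rose by 4.71 ± 0.47, 4.82 ± 0.46 and 3.85 ± 0.43 in WT cells, from resting levels of 1.42 to 5.20 CPM. Ndc80 itself was at 28.7 to 33.3 CPM at rest in WT cells and at 75.0 to 83.4 CPM at 24 h, a log2 change of 1.35 ± 0.12. Its resting level was thus above that of its partners in each WT mouse. All 11 genes of the spindle and cytokinesis rose in both genotypes, from Kif23, a motor of the central spindle (2.31 ± 0.28 in WT), to Tpx2, which activates Aurora A (4.88 ± 0.46). For Kif20a, 25.2% of the windows are shared with the overlapping gene Cdc23, and the counting is not stated to have used the strand.

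Mki67 and Top2a had the highest CPM of the group at 24 h, a scale that favours long transcripts. Per kilobase of exon sequence Mki67 followed Top2a and Smc4 in WT cells, at 85.6 CPM per kb, and in Aim2-/- cells, at 73.7 CPM per kb, it also came after Ube2c and Cdc20. Mki67, the source of the Ki-67 antigen that coats mitotic chromosomes, was at 99.8, 37.4 and 48.4 CPM at 0 h in WT 1, 3 and 4 and at 839, 947 and 797 CPM at 24 h. In Aim2-/- 1, 2 and 4 it went from 142, 82.1 and 116 CPM to 655, 850 and 720 CPM. The Aim2-/- 2 mouse had the lowest resting and the highest stimulated level of its genotype. The log2 change of Mki67 was 3.80 ± 0.45 (13.9-fold) in WT and 2.71 ± 0.43 (6.54-fold) in Aim2-/- cells. Top2a, topoisomerase II alpha, which untangles sister chromatids, rose by 4.35 ± 0.44 in WT and 3.30 ± 0.42 in Aim2-/- cells. The condensin genes Ncapd2, Ncapg, Ncaph and Smc2 rose by 2.53 to 4.57 on the log2 scale in WT cells, and Smc4 fell. The transcription factor genes Foxm1 and Mybl2 (B-MYB) rose by 2.64 ± 0.22 and 4.32 ± 0.27 in WT cells, and their log2 changes in Aim2-/- cells were 2.10 ± 0.21 and 3.10 ± 0.26.

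**Figure D2:**
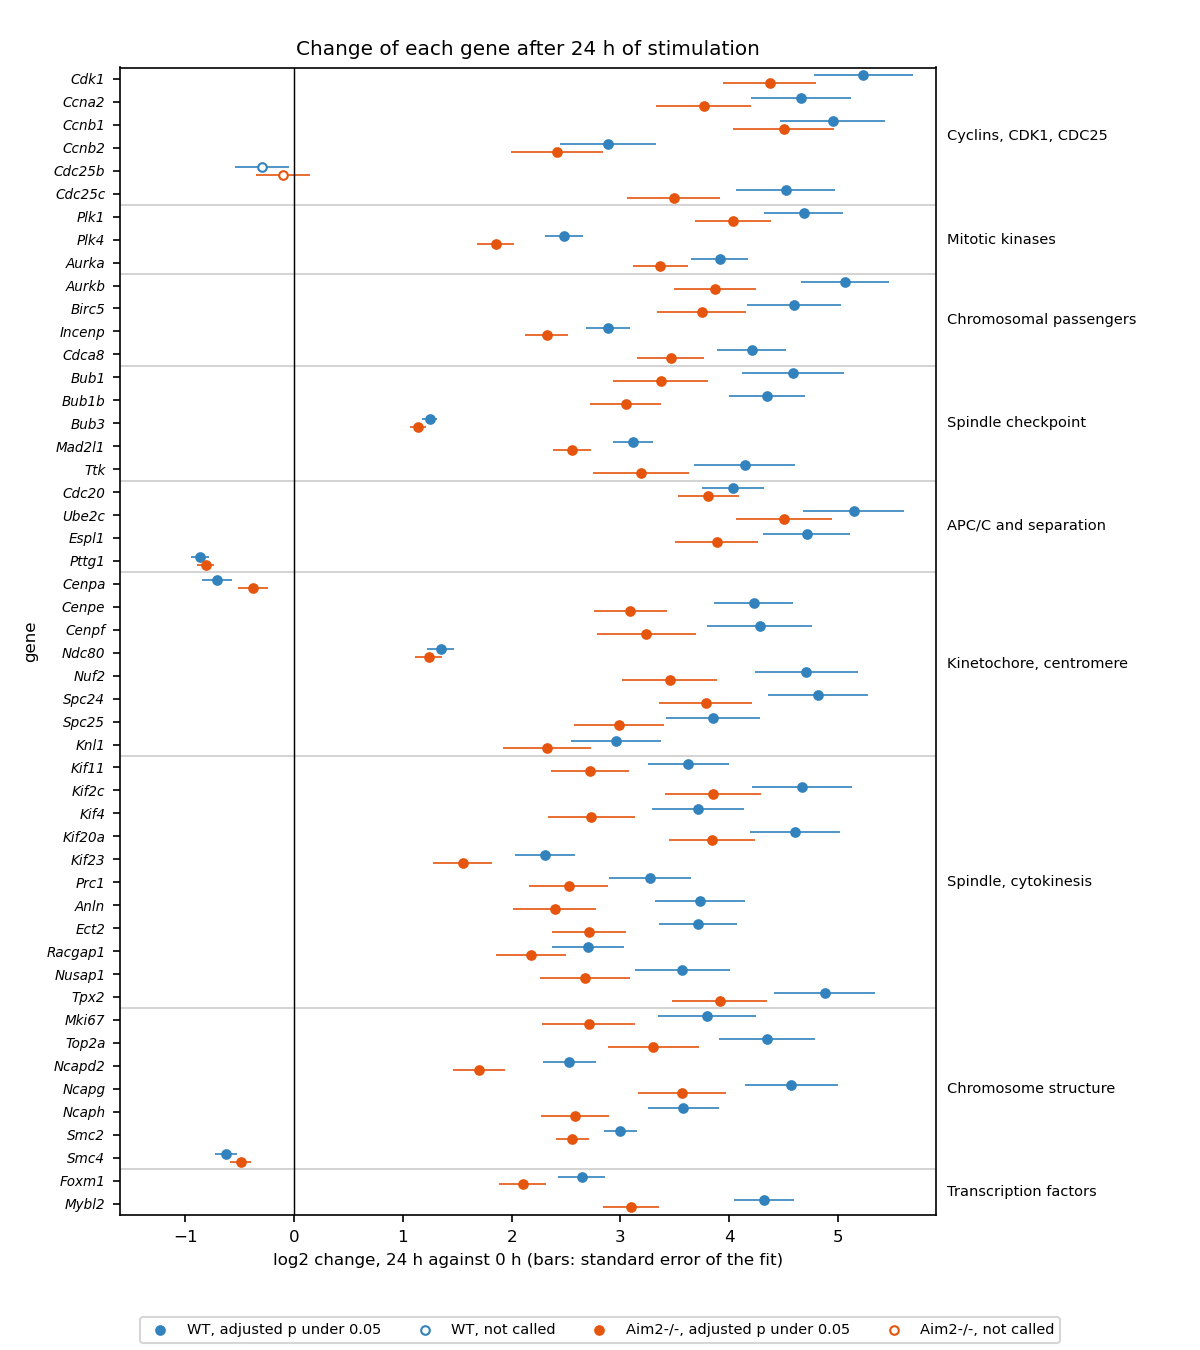
Log2 change of each gene from 0 h to 24 h (x axis) in WT and Aim2-/- cells, with bars for the standard error of the fit, filled points for an adjusted p under 0.05 and genes ordered by role. In each genotype 46 genes lie to the right of 0, Pttg1, Cenpa and Smc4 lie to the left, and the Cdc25b point is open.

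The 3 genes called lower at 24 h than at 0 h were abundant at rest, and their courses differed from those of the rest. Cenpa was at 146, 178 and 171 CPM at 0 h in WT 1, 3 and 4, at 61.8, 51.9 and 56.7 CPM at 3 h, at 40.7, 31.4 and 36.8 CPM at 6 h, and at 113, 95.6 and 94.7 CPM at 24 h. In Aim2-/- 1, 2 and 4 it was at 145, 164 and 164 CPM at 0 h, 71.1, 43.9 and 58.1 CPM at 6 h, and 123, 113 and 128 CPM at 24 h. It fell in every mouse by 3 h and had recovered in part by 24 h. In Aim2-/- cells the log2 change at 24 h was -0.38, and its adjusted p of 0.022 became 0.073 without Aim2-/- 2 and 0.090 without Aim2-/- 4 (edgeR). The log2 change in WT cells went from -1.54 ± 0.14 at 3 h to -2.19 ± 0.15 at 6 h, then stood at -0.71 ± 0.14 by 24 h, and the rise from 6 h to 24 h was 1.48 ± 0.15. Smc4 followed a like course. Its resting level of 787, 748 and 718 CPM in WT 1, 3 and 4 became 282, 244 and 273 CPM at 6 h and then 476, 515 and 468 CPM at 24 h. Its log2 change in WT cells was -1.50 ± 0.10 at 6 h and -0.63 ± 0.10 at 24 h, with no overlap between mice of the 3 times. Smc4 pairs with Smc2 at the core of condensin, and Smc2 had the opposite sign, with a log2 change of 0.41 ± 0.15 at 3 h and 3.00 ± 0.16 at 24 h in WT cells. Pttg1 fell and stayed low, from 58.9 to 63.1 CPM at 0 h to 30.7 to 31.1 CPM at 6 h and 32.5 to 34.5 CPM at 24 h in WT mice. Its log2 change at 24 h was -0.87 ± 0.08 in WT and -0.81 ± 0.08 in Aim2-/- cells, and the step from 6 h to 24 h in WT cells was 0.11 ± 0.08 (adjusted p 0.28, edgeR).

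**Figure D3:**
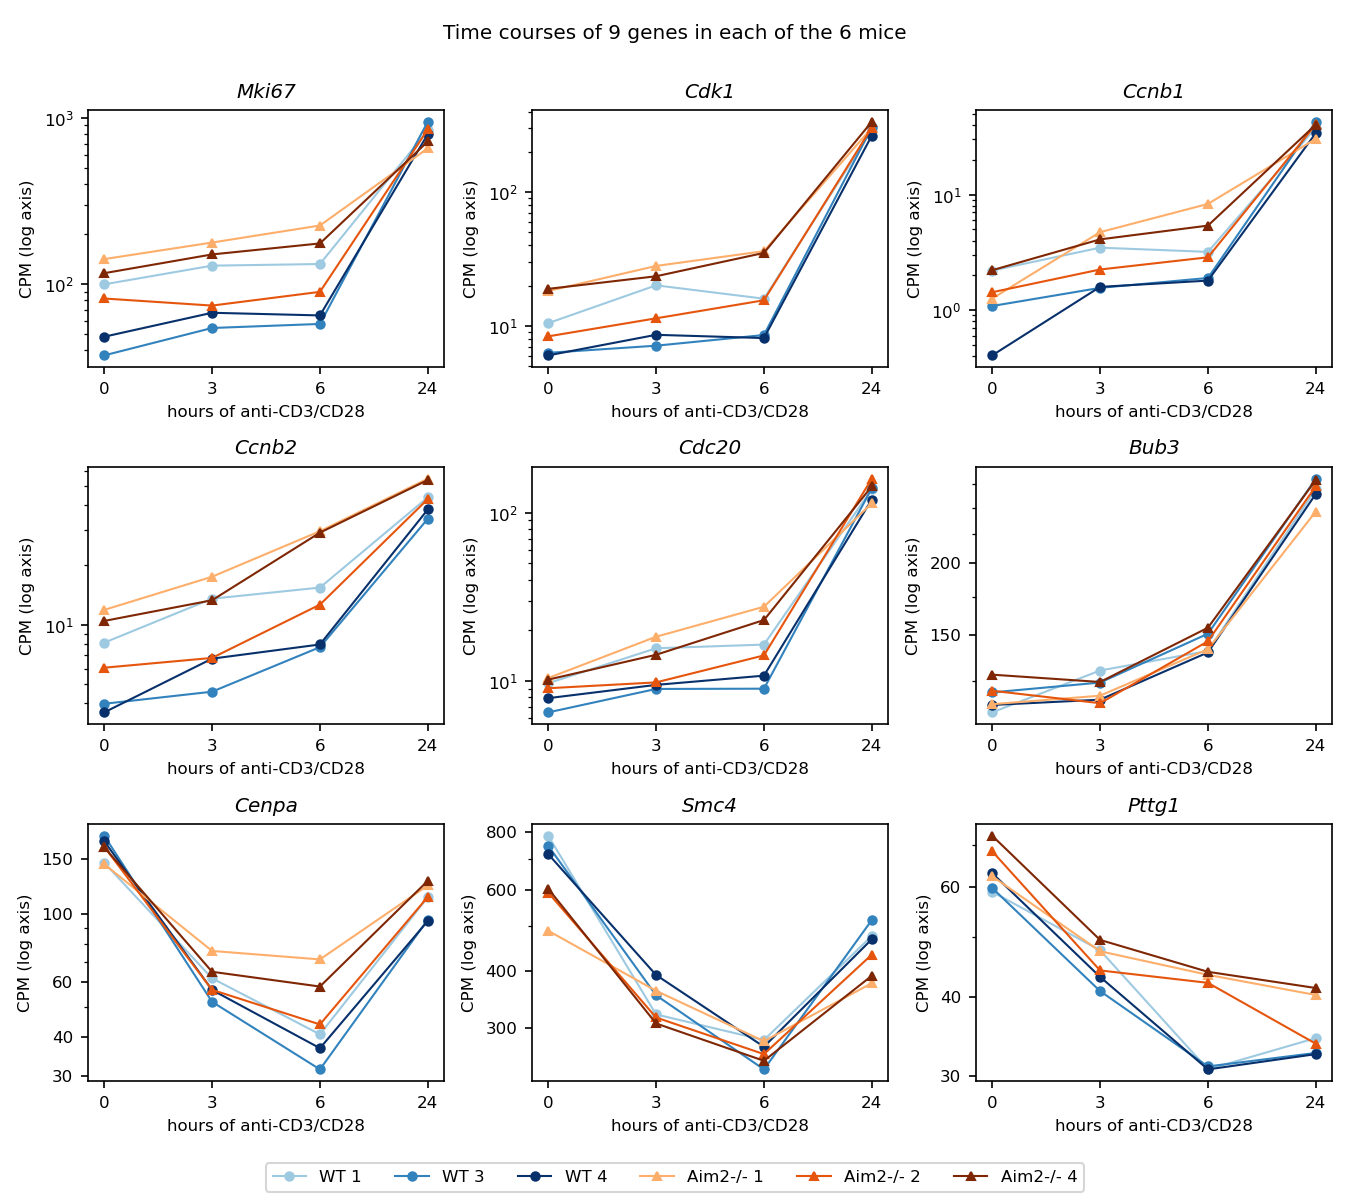
CPM (log axes) of 9 genes against hours of stimulation (equally spaced, not to scale) in each of the 6 mice, with circles for WT and triangles for Aim2-/-. Mki67, Cdk1, Ccnb1, Ccnb2 and Cdc20 climb mainly after 6 h, Cenpa and Smc4 dip and recover in part, and Pttg1 stays low, while the mouse labelled WT 1 runs above the other WT mice at 3 h for the 5 climbing genes.

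During the first 6 h few of the genes passed the test, and those that did moved in both directions. At 3 h 4 genes rose and 4 fell in WT cells, against 32.6% of all tested genes called (16.2% higher and 16.4% lower), and in Aim2-/- cells 2 rose and 4 fell, against 30.7% (16.1% higher and 14.6% lower). At 6 h the counts were 4 risen and 6 fallen in WT, with a background of 51.1% (26.4% higher and 24.8% lower), and 13 risen and 5 fallen in Aim2-/- cells, with a background of 51.2% (28.5% higher and 22.7% lower). The share of the group called was therefore below that of all genes at 3 h and 6 h in this fit. With no filter on low counts it was above, at 17 and 20 genes at 3 h and 6 h in WT, where 13.5% and 23.1% of 31367 genes were called. That larger set takes in the genes the filter had removed for low counts, so its background is not like that of the filtered fit. Whether the group moved more or less often than other genes is not settled by these shares. The fitted change was positive for 39 and 34 of the 50 genes at 3 h and 6 h in WT and for 38 and 36 in Aim2-/- cells, most of them without passing the test. The median log2 change at those times was 0.38 and 0.36 in WT and 0.25 and 0.49 in Aim2-/- cells, against 0.02 to 0.08 over all tested genes. Single WT mice had 37 to 40 genes above rest at 3 h and 31 to 35 at 6 h, and Aim2-/- mice had 23 to 43 and 34 to 38. The genes that rose at 3 h in WT were Cdc25c, Plk1, Smc2 and the kinetochore motor Cenpe, and the genes that fell were Cenpa, Smc4, Pttg1 and Ndc80. Cdc25b and Kif23 joined the fallen genes at 6 h, by -0.91 ± 0.25 and -1.32 ± 0.28 on the log2 scale. By 24 h Kif23 had the rise given above, and Cdc25b was higher than at 6 h in all 3 WT mice and lower than at rest. Ccnb2 was at 3.60 to 8.10 CPM at 0 h and 7.69 to 15.4 CPM at 6 h in WT mice, and at 6.06 to 11.9 CPM and 12.6 to 29.7 CPM in Aim2-/- mice, where it rose by 1.33 ± 0.42. The step from 6 h to 24 h then carried 49 genes up in WT, where 57.6% of all tested genes were called (29.6% higher and 28% lower). In Aim2-/- cells it carried 48 up, where 54.3% were called (27.4% higher and 27% lower), and no gene of the group was called lower in either. With each mouse as a block, since each mouse gave all 4 times, the counts called were larger, at 14 genes at 3 h and 18 at 6 h in WT and 15 at 3 h in Aim2-/- cells, and so were the shares of all tested genes, at 42.7%, 59.2% and 41.2%. The count at 3 h in WT was 3 without WT 3 and 4 without WT 4, in each case fallen genes alone (18.7% and 22.5% of all tested genes), and the 6 h count in WT was 6 without WT 4 (39.9%). Without Aim2-/- 4 the Aim2-/- counts were 3 at 3 h and 9 at 6 h (18% and 40.5%). Without the mouse labelled WT 1 the WT counts were 7 at 3 h and 11 at 6 h (22.4% and 43.7%).

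The comparison of the genotypes asked whether loss of AIM2 goes with other levels of these genes. In resting cells the fitted difference was positive, meaning higher in Aim2-/- cells, for 48 of the 50 genes, with a median log2 difference of 0.66, against -0.01 over all tested genes. None of these 48 passed the edgeR test. Smc4 alone was called, as lower in Aim2-/- cells, where 5.23% of all tested genes were called, 3.24% as higher and 1.99% as lower. It was at 787, 748 and 718 CPM in WT 1, 3 and 4 and at 489, 592 and 603 CPM in Aim2-/- 1, 2 and 4, without overlap, a log2 difference of -0.42 ± 0.10 (adjusted p 0.021, edgeR). An unadjusted p under 0.05 was found for 18 of the 50 genes, a share of 36% where 23.8% of all tested genes had one, and DESeq2 called 2, of which 1 was higher (10.8% of all genes). At 3 h no gene was called by edgeR or DESeq2 (background 0.294%), 6 genes had an unadjusted p under 0.05, as did 15.3% of all tested genes, and the median difference was 0.57. The median without the mouse labelled WT 1 was 0.99 at 0 h and 0.94 at 3 h. It was as low as 0.45 at 0 h without WT 3 and 0.31 at 3 h without Aim2-/- 1. In the fit that left out the mouse labelled WT 1 the calls at 0 h numbered 14, of which 13 were higher in Aim2-/- cells, where 5.77% of all tested genes were called. Without Aim2-/- 2 they numbered 12, of which 11 were higher, against 13.7%, and without any one of the other 4 mice there were 0, against 0.191% to 1.04%. Without the mouse labelled WT 1 there were 2 calls at 3 h (2.71%), Ncapg and the cytokinesis regulator Racgap1, both higher. Without Aim2-/- 2 the calls at 3 h were 5 (7.31% of all tested genes), all higher: Spc25, Birc5, Mybl2, Cdca8 and Mad2l1.

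At 6 h the difference passed the test for 13 genes, all higher in Aim2-/- cells, a share of the group of 26% where 15.8% of all tested genes were called, 8.78% as higher and 7.01% as lower. They were Cdk1 and Cdc25c, the kinase Aurka, the passenger genes Aurkb, Birc5 and Cdca8, the checkpoint gene Mad2l1, the APC/C genes Cdc20, Ube2c and Pttg1, and Cenpa, Anln and Mybl2. Cdk1 was at 16.0, 8.57 and 8.13 CPM in WT 1, 3 and 4 and at 36.2, 15.6 and 35.2 CPM in Aim2-/- 1, 2 and 4. The library labelled WT 1 lay above Aim2-/- 2, so the groups overlapped, and the log2 difference was 1.41 ± 0.40 (adjusted p 0.028, edgeR). Pttg1 was at 30.7, 31.1 and 30.7 CPM in WT 1, 3 and 4, while Aim2-/- 1, 2 and 4 had 43.5, 42.2 and 43.9 CPM. These groups stood well apart, and the log2 difference of 0.49 ± 0.08 had the smallest adjusted p of the group, 0.0045. Cenpa differed by 0.67 ± 0.14 and Aurkb by 1.31 ± 0.37. All 3 Aim2-/- mice lay above all 3 WT mice for only 5 of the 50 genes at 6 h, whereas 18.6% of all tested genes had that order. The median difference over the group was 0.90, against 0.05 over all tested genes.

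The calls at 6 h rested on which mice were included. Without the mouse labelled WT 1 the number called was 42, all higher, where 11.4% of all tested genes were called in that fit, and without Aim2-/- 2 it was 37, where 25.7% were. It was 1 without WT 3 (1.14% of all tested genes), 0 without WT 4 (0.607%), and 1 without Aim2-/- 1 (1.92%) or without Aim2-/- 4 (2.71%). A fit of the 6 h libraries alone called 1 gene (7.17%). The median difference of 0.90 ranged from 0.65 without WT 3 to 1.27 without the mouse labelled WT 1. Beside these differences, the granulocyte progenitor marker sum at 6 h was 10.3 to 20.2 CPM in WT and 63.2 to 153 CPM in Aim2-/- mice, the erythroid sum 31.9 to 70.2 CPM and 67.4 to 498 CPM, and the plasma cell sum 299 to 400 CPM and 644 to 1083 CPM. Of the plasma cell sum, the marker Xbp1 was 223 to 253 CPM in WT and 271 to 290 CPM in Aim2-/- mice. All 5 granulocyte progenitor markers were called higher in Aim2-/- cells at 0 h and 6 h, 2 of 5 tested B cell markers at both times, and 2 and 3 of 5 plasma cell markers. Their part in the difference was not tested.

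At 24 h no gene of the group was called by edgeR (background 0.666%), and DESeq2 called Smc4 alone. An unadjusted p under 0.05 was found for 3 genes, and for 20.5% of all tested genes. The difference was negative for 41 of the 50, with a median of -0.16 that ranged from -0.22 without Aim2-/- 2 to -0.06 without Aim2-/- 1. Mki67 differed by -0.21 ± 0.40 and Cdk1 by 0.13 ± 0.36 on the log2 scale. Without Aim2-/- 2 the test called 4 genes at 24 h, a share of 8% where 17.3% of all tested genes were called, with Mybl2, Smc2 and Smc4 lower and Pttg1 higher in Aim2-/- cells. The granulocyte progenitor sum was then 3.85 to 6.08 CPM in WT and 17.9 to 103 CPM in Aim2-/- mice.

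**Figure D4:**
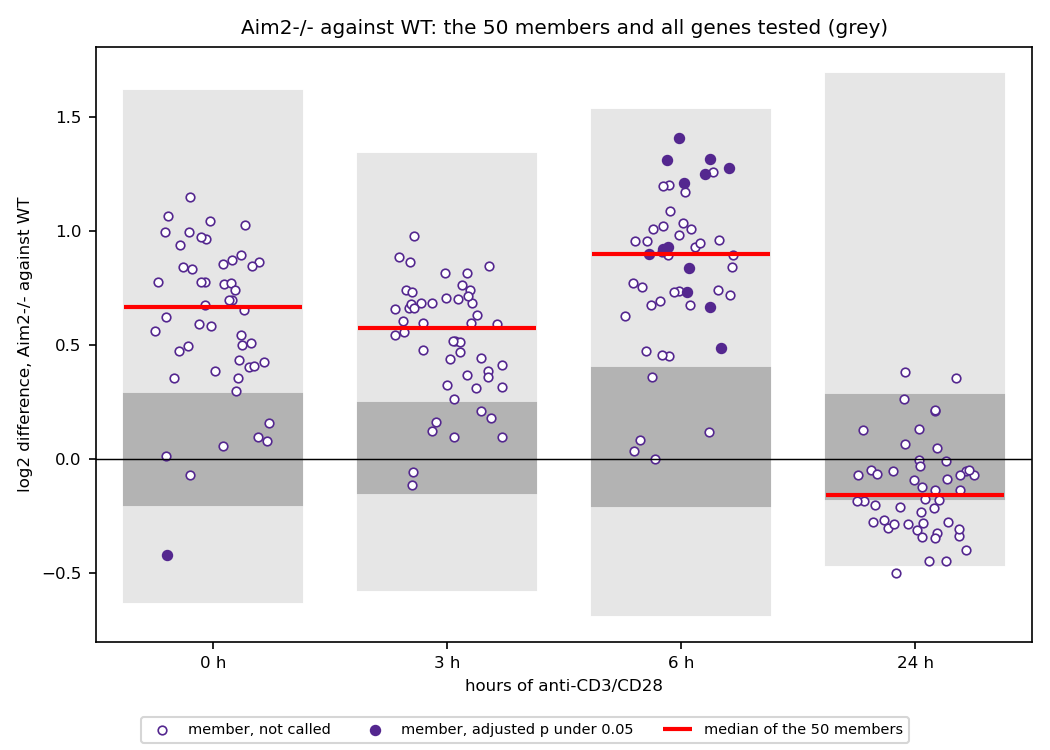
Log2 difference between Aim2-/- and WT cells (y axis) at each time for the 50 genes (points, filled where the adjusted p is under 0.05), with the median of the group in red and, in grey, the middle 90% and 50% of all tested genes. The group median is 0.66, 0.57 and 0.90 at 0 h, 3 h and 6 h and -0.16 at 24 h.

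Whether stimulation changed these genes by different amounts in the genotypes was tested with the interaction of genotype and time. None of the 50 genes was called by edgeR at 3 h, 6 h or 24 h, where 0%, 0.0261% and 0% of all tested genes were called, and 1, 3 and 13 genes had an unadjusted p under 0.05, where 4.26%, 13.2% and 11.9% of all tested genes had one. DESeq2 called 1 gene at 6 h, Cenpa, where 2.89% of all genes were called, and none at 3 h or 24 h. With each mouse as a block Cenpa was also called at 6 h (adjusted p 0.023, edgeR), and no gene of the group at 3 h or 24 h. The block raised the shares of all tested genes called to 4.68% at 6 h and 2.77% at 24 h. The group was thus not called more often than other genes. The fitted 24 h response was smaller in Aim2-/- cells for 46 of the 50 genes, with a median difference of -0.83. Mybl2 had the smallest p at 24 h, with a difference of -1.22 ± 0.35 (adjusted p 0.16, edgeR), and Cenpa at 6 h, with 0.74 ± 0.20 (adjusted p 0.11). Without Aim2-/- 2 each of these 2 passed, with adjusted p of 0.025 and 0.044 (edgeR). Other annotated genes share 18.8% of the 51-base windows of Mybl2, so its level is uncertain. The responses compared here share their 0 h libraries with the comparison of resting cells above. Mouse by mouse, the median 24 h response of the 50 genes was 3.43, 4.41 and 3.97 in WT 1, 3 and 4 and 2.47, 3.63 and 2.78 in Aim2-/- 1, 2 and 4. The Aim2-/- 2 mouse thus rose more than the mouse labelled WT 1, and the groups overlapped.

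The mice kept one order over most of the group during the first 6 h. The mouse labelled WT 1 was the highest WT mouse for 47, 48 and 47 of the 50 genes at 0 h, 3 h and 6 h, where 36.6%, 35.9% and 38.2% of all tested genes had it highest, and for 9 genes at 24 h (32.8%). Aim2-/- 2 was the lowest Aim2-/- mouse for 42, 47 and 45 genes at these early times (36.4%, 35.2% and 34% of all tested genes), and for 37 genes it was the highest at 24 h. At 3 h the mouse labelled WT 1 lay above Aim2-/- 2 for all 50 genes, against 53.1% of all tested genes. The median log2 CPM of the 50 genes at 0 h was 3.39, 2.50 and 2.58 in WT 1, 3 and 4 and 3.99, 3.18 and 3.87 in Aim2-/- 1, 2 and 4. At 24 h it was 6.77, 6.87 and 6.61 in the WT mice and 6.48, 6.78 and 6.67 in the Aim2-/- mice. The 6 medians thus spanned a much wider range at rest than after 24 h. The 50 genes are not independent of each other, since they share each library and its cells.

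The mice had a similar order at rest in some marker sums and not in others. The plasma cell sum at 0 h was 394, 306 and 285 CPM in WT 1, 3 and 4 and 1063, 657 and 1020 CPM in Aim2-/- 1, 2 and 4. In that sum the mouse labelled WT 1 was the highest of the WT mice and Aim2-/- 2 the lowest of its genotype, and 3 of the 5 plasma cell markers kept both orders. A single marker, Xbp1, made up 203, 239 and 229 CPM of the WT sums and 278, 251 and 287 CPM of the Aim2-/- sums. Jchain was at 157, 48.4 and 35.9 CPM in WT 1, 3 and 4 and at 717, 364 and 686 CPM in Aim2-/- 1, 2 and 4. The WT sums therefore mainly reflect Xbp1. The B cell sum kept both orders too, at 4.75, 4.39 and 3.25 CPM in WT 1, 3 and 4 and 34.4, 10.3 and 13.0 CPM in Aim2-/- 1, 2 and 4. The granulocyte progenitor sum was lowest in Aim2-/- 2, and WT 1 and WT 4 were nearly equal at 33.1 and 33.2 CPM. The erythroid and myeloid sums were lowest in Aim2-/- 2 but not highest in the mouse labelled WT 1. The erythroid sum was 69.3 CPM in WT 3 and 39.2 CPM in WT 1, and the myeloid sum 50.2 and 33.3 CPM. At 0 h both orders were kept by 2 of 6 B cell, 2 of 6 erythroid, 2 of 5 granulocyte progenitor and 0 of 6 myeloid markers. At 3 h and 6 h the mouse labelled WT 1 had the highest granulocyte progenitor and myeloid sums of the WT mice, and WT 3 the highest erythroid sum. The granulocyte progenitor sum at 3 h was 96.9 CPM in Aim2-/- 2 and 95.1 CPM in Aim2-/- 4. At 24 h the plasma cell sum was 191 to 201 CPM in WT and 241 to 456 CPM in Aim2-/- mice. Of it, Xbp1 was 158 to 185 CPM in WT and 186 to 212 CPM in Aim2-/- mice. The part of such cells in the levels of the group was not tested.

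**Figure D5:**
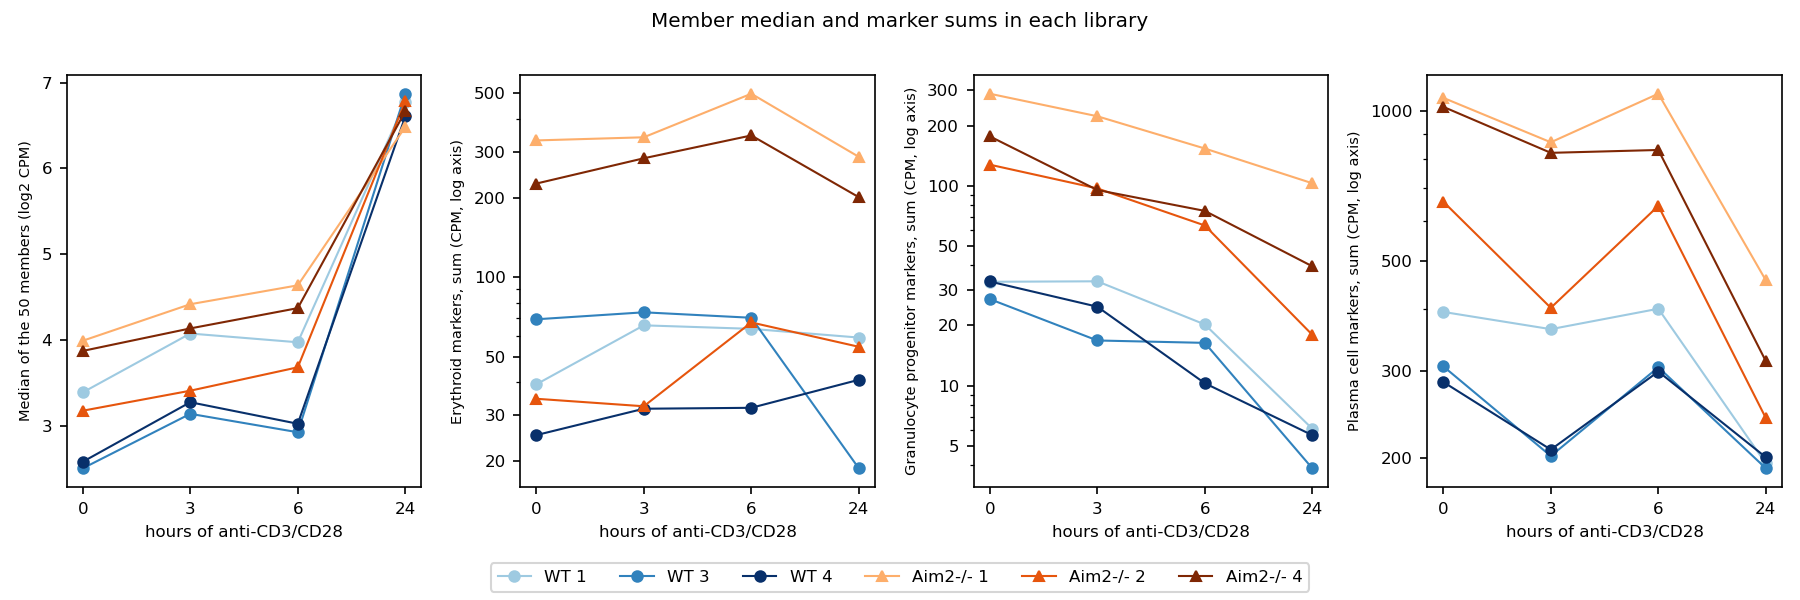
Median log2 CPM of the 50 genes and summed CPM (log axes) of erythroid, granulocyte progenitor and plasma cell markers against hours of stimulation (equally spaced) in each mouse. The 6 medians run in nearly one order until 6 h and meet between 6.48 and 6.87 at 24 h, while Aim2-/- 1 and Aim2-/- 4 keep the highest erythroid sums at all times.

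Other genes of the same processes moved with the group at 24 h, and neighbouring complexes did so in part. Of 57 further mitosis genes, 55 rose and none fell in WT cells, and 54 rose and 1 fell in Aim2-/- cells. Trip13, which recycles the checkpoint complex, and Hmmr, a spindle protein gene, had log2 changes of 5.34 and 5.02 in WT cells, and Zw10 and Cenpl changed by -0.06 and -0.12. Of 20 genes of G1 and S phase, all rose in both genotypes, from Mcm10 (5.39), which is needed to start DNA synthesis, and Cdc6 (5.22) to Cdt1 (0.84). Of 16 genes listed with the APC/C, its subunits together with Fzr1 and Ube2s, which are not subunits, 14 rose and 1 fell in WT cells. Their median was 0.69, and all of them changed by less than the activator Cdc20 and the enzyme Ube2c. Anapc15 was the highest of them at 3.04, and Anapc2 was at -0.96. Among 18 genes of the DREAM, E2F and RB families, 10 rose and 5 fell in each genotype, beside the 36.6% higher and 34.8% lower of all tested genes in WT cells, E2f8 by 4.26 and Rbl2, the p130 pocket protein gene of DREAM, by -2.03 in WT cells. Cohesin genes, whose product holds sister chromatids together, had 3 of 10 risen and 4 fallen in WT cells, shares near those of all tested genes. Smc1a rose by 1.50 and the loader genes Nipbl and Mau2 changed by -1.61 and -2.12 there.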

How the data were processed

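The deposited file holds raw counts per Ensembl gene, and the authors aligned reads with STAR to GRCm38 per the labels. The study's methods describe stranded, 51-base single-end reads, for RNA-seq of naive T cells and of cells in Treg conditions, which is another experiment. That these features also hold for this time course was assumed, and use of the strand in counting is not stated. The CD4+ T cells were obtained by negative immunomagnetic selection. The members and lists were chosen with earlier results of these data known. Symbols, positions and exon lengths came from a GENCODE annotation of GRCm38, which matched 54409 of 54446 identifiers. Counts were filtered (edgeR filterByExpr, minimum count 10), scaled by TMM and fitted in all 24 libraries with group means (edgeR 4.0.16, R 4.3.3). The quasi-likelihood test gave p-values, adjusted over 15325 genes with a threshold of 0.05, and SE is the log2 change divided by the root of its F. Replicates are mice, and levels are CPM on TMM-scaled totals. Alternatives used DESeq2 1.42.0, limma 3.58.1, other scalings and filters, blocks and leaving out each mouse. The scripts were tested on simulated data. Within a mouse, deviations from group means at different times correlated at 0.139 to 0.567 over 36 pairs, and the labels give the same mouse at all 4 times. Genes named in full were a chosen core list and those with the largest or smallest changes or the smallest p in each comparison. Gene pairs sharing 51-base windows are uncertain.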

Additional observations from a re-analysis of the deposited data

Results flagged for a closer look

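The response of Mybl2 at 3 h was small and had opposite signs in the genotypes. Its log2 CPM changed by 0.12, 0.13 and 0.02 in WT 1, 3 and 4 and by -0.01, -0.23 and -0.05 in Aim2-/- 1, 2 and 4, so that every WT mouse was higher than at rest and every Aim2-/- mouse lower. The fitted difference between the responses was -0.17 on the log2 scale, and its test did not pass the threshold in the edgeR fit. The level of Mybl2 is also uncertain, since other annotated genes share 18.8% of its 51-base windows. All genes of the group were screened for such a pattern at each stimulated time. The share of all tested genes with it was not counted, so the pattern alone does not show a genotype difference. Groups of 3 mice were too small for the test of single outlying libraries.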

How the results depend on the processing

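Counts of members called at 24 h against 0 h or 6 h stayed within 1.5 times under all alternatives run, and no called value changed sign. With no filter on low counts the counts were 17 and 20 at 3 h and 6 h in WT, 16 at 3 h in Aim2-/- cells, 19, 5 and 39 for the genotypes at 0 h, 3 h and 6 h, and 1 and 4 for the 6 h and 24 h interactions, where 13.5%, 23.1%, 12.7%, 4.78%, 2.47%, 9.38%, 0.469% and 0.494% of all genes were called in the same order. With each mouse as a replicate block they were 14 and 18 at 3 h and 6 h in WT, 15 at 3 h in Aim2-/- cells and 1 (Cenpa) for the 6 h interaction, and the block moved no other count by over 1.5 times. The shares of all tested genes called with this block were 42.7%, 59.2%, 41.2% and 4.68% in the same order. With the mouse number as a block over the genotypes they were 18, 7, 42 and 1 at 0 h, 3 h, 6 h and 24 h (23.6%, 15.2%, 36% and 21.1% of all genes), but same-numbered mice correlated at -0.165 to 0.300 over 32 pairs and share only a number. With only the libraries compared the genotype counts were 0 at 0 h and 1 at 6 h (2.36% and 7.17% of all genes). DESeq2 gave 2 at 0 h, 1 at 24 h (Smc4) and 1 (Cenpa) for the 6 h interaction (10.8%, 5.95% and 2.89%). Leaving out 1 mouse at a time gave 3 to 10 and 6 to 15 in WT at 3 h and 6 h, 3 to 8 and 9 to 22 in Aim2-/- cells, 0 to 14, 0 to 5, 0 to 42 and 0 to 4 for the genotypes at 0 h, 3 h, 6 h and 24 h, and 0 to 1 for the 6 h and 24 h interactions. The 8, 22, 14 and 42 came without WT 1, where 28.7%, 50%, 5.77% and 11.4% of all genes were called. The 10, the 15 and the interaction calls were reached without Aim2-/- 2, and shares for those are not listed here. Shares of all genes called also changed between these fits, so the counts alone do not describe the group. The cause of these changes was not tested. For low genes such as Cdc25c and Ccnb1, depth limits what can be seen at rest.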

Other observations

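At 6 h, 6 of 10 cohesin genes were lower in Aim2-/- than in WT cells at an adjusted p under 0.05 (edgeR), where 7.01% of all tested genes were called lower. The 6 were Smc1a, Stag1, Pds5a, Pds5b, Wapl and Nipbl, with log2 differences of -0.52 ± 0.16, -0.41 ± 0.08, -0.46 ± 0.14, -0.34 ± 0.11, -0.40 ± 0.11 and -0.39 ± 0.11, and Rad21, the subunit cut by separase, was at -0.02 ± 0.09. Without the mouse labelled WT 1, 1 of the 10 was called lower, where 3.62% of all tested genes were, and the median difference was -0.27. Of the 20 genes of G1 and S phase, 6 were called higher and none lower in Aim2-/- cells at 6 h, where 8.78% of all tested genes were called higher, with a median difference of 0.40. Without the mouse labelled WT 1 it was 5 of 20, where 7.83% were called higher. As given above, few of all tested genes were called at 6 h when certain other single mice were left out. The cohesin and G1 and S phase counts may therefore also depend on the mice included, and these lists are among several that were compared.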
